A study of Mus musculus with 4 samples.

Results

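The 45 genes described here mark the cells of blood vessels in the brain, that is endothelial cells, the pericytes that wrap capillaries and the smooth muscle cells of larger vessels. They were listed by symbol and were found by exact match of the symbol in every library, 45 of 22609 gene symbols in all. It holds 6 junction genes, 6 transport genes, 6 receptor genes, 8 other endothelial surface genes and enzymes, 6 transcription factors, 4 adhesion molecules, 6 pericyte genes and 3 smooth muscle genes. Gene expression was measured by RNA-Seq in the hippocampus of ovariectomized female mice 24 h after global cerebral ischemia (GCI), induced by occluding both common carotid arteries for 20 min. FBN-ARO-KO mice carry a Cyp19a1 gene, which encodes aromatase, that is deleted by Cre under the CaMKIIα promoter, a promoter active in forebrain excitatory neurons and not in vessel cells, and FLOX mice were their controls. All mice were 3 to 5 months old, were ovariectomized 1 week before occlusion and underwent GCI, so that the comparison of 2 FBN-ARO-KO+GCI with 2 FLOX+GCI libraries asks what the loss of neuronal aromatase changes in the ischemic hippocampus, and no library without ischemia was used here.

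Brain endothelial cells form the blood-brain barrier. Tight junctions seal the gaps between neighbouring cells, efflux pumps and carriers in the cell membrane decide which molecules pass, and vesicle traffic across the cell is held low. The barrier program is kept up by Wnt and β-catenin signaling and by contact with pericytes, while VEGF and angiopoietin receptors govern vessel growth and stability. After ischemia, endothelial cells can display selectins and immunoglobulin-type adhesion molecules that bind leukocytes, and aromatase makes estradiol, a steroid that acts on neurons, glia and vessels.

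Counts on genes totaled between 24333396 and 33076795 per library, so that 3 counts correspond to between 0.0905 and 0.122 CPM (counts scaled to library size with edgeR's TMM factors), a floor that covers counting error only. Cyp19a1 itself was at 4 and 1 reads in the FLOX+GCI libraries and 2 and 2 reads in those of FBN-ARO-KO+GCI, which cannot check the deletion at this depth. The sources used here do not say whether the 2 libraries of a group were separate mice, so the p-values measure only the spread between these libraries, which may be technical. Over 14004 genes the log2 fold change ran against the transcript's GC content (Spearman's rho -0.55, a description over genes), and so did the difference between the FBN-ARO-KO+GCI libraries (rho -0.48, replicate 2 over replicate 1). The median GC content of the vascular genes was 51.4%, beside 50.6% for all genes tested.

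The vascular genes lay on the lower side in FBN-ARO-KO+GCI, but none passed the test over all genes. Of the 45 genes, 43 passed the filter on low counts and were tested, and Sele and Selp did not. The log2 fold change of FBN-ARO-KO+GCI over FLOX+GCI was below 0 in 37 of the 43 and above 0 in 6, with a median of -0.39 and a range from -0.91 to 0.48. Across all 14527 genes tested the median was -0.01 and 51.3% of genes were below 0. With edgeR's quasi-likelihood test and Benjamini-Hochberg adjustment, 0 of the 43 had an adjusted p under 0.05, beside 0.0138% of all genes, and the smallest adjusted p was 0.238. At an unadjusted p under 0.05 there were 9 vascular genes lower in FBN-ARO-KO+GCI (20.9%) and 1 higher, beside 7.82% and 8.72% of all genes, and in either direction 10 (23.3%), beside 16.5%. DESeq2 gave an adjusted p to 10 of the 45 vascular genes, not to Cdh5 or Mfsd2a among others, and called 2 of the 10, Pltp and Ptprb, both lower, beside 5.1% of the 5728 genes with an adjusted p there. Both FBN-ARO-KO+GCI libraries lay below both FLOX+GCI libraries for 17 of the 43, beside 25.8% of all genes, and above them for 1, beside 25.9%, and the groups overlapped for 25. A fit with an offset for GC content and length gave a median of -0.28 for the vascular genes, again with 37 of 43 below 0, and 0.03 for all genes. In that fit 10 vascular genes were lower at an unadjusted p under 0.05, beside 3.48% of all genes, and Mfsd2a was higher, so that 11 of 43 passed in either direction, beside 11.4%.

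The size of this difference depended on the library. Without FLOX+GCI replicate 1 the median of the 43 genes was -0.08, with 26 below 0, and without FBN-ARO-KO+GCI replicate 2 it was -0.14, with 31 below 0. Without FLOX+GCI replicate 2 it was -0.65, with 39 below 0, and 6 genes had an adjusted p under 0.05 with edgeR, namely Cdh5, Pltp, Ptprb, Vwf and Itm2a on the lower side and Mfsd2a on the higher side, beside 0.854% of all genes in that fit. Without FBN-ARO-KO+GCI replicate 1 the median was -0.53. The number of vascular genes at an unadjusted p under 0.05 was 4 without FLOX+GCI replicate 1 (15.9% of all genes), 27 without FLOX+GCI replicate 2 (12.9%), 19 without FBN-ARO-KO+GCI replicate 1 (18.8%) and 2 without FBN-ARO-KO+GCI replicate 2 (5.64%). In a hippocampus sampled in bulk, fewer vessel cells and less RNA per vessel cell cannot be told apart.

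**Figure D1:**
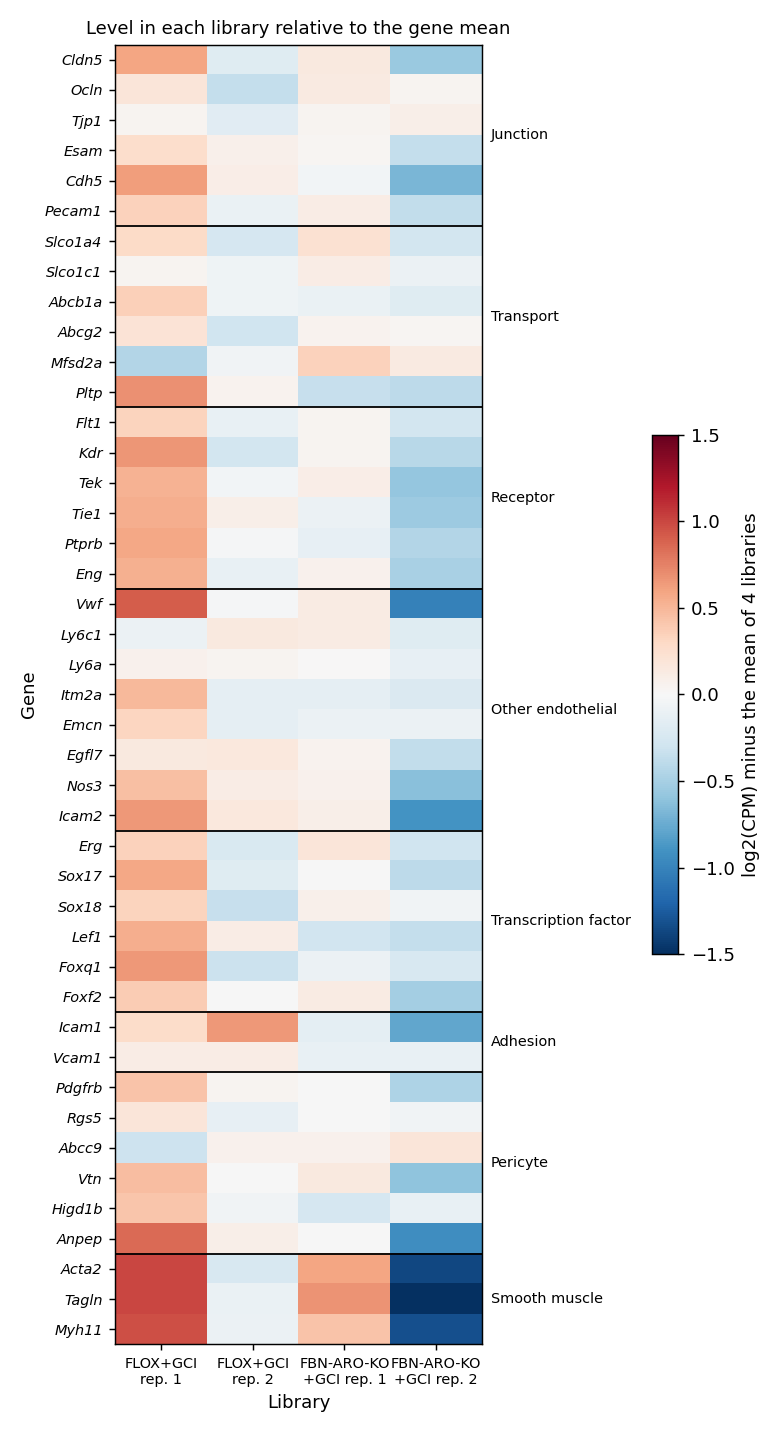
Heat map of the 43 tested vascular genes (rows, grouped by role) in the 4 libraries (columns), with color giving log2 CPM minus the mean of that gene over the 4 libraries. FLOX+GCI replicate 1 is the highest library for most genes and FBN-ARO-KO+GCI replicate 2 the lowest, while Mfsd2a is lowest in FLOX+GCI replicate 1.

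**Figure D2:**
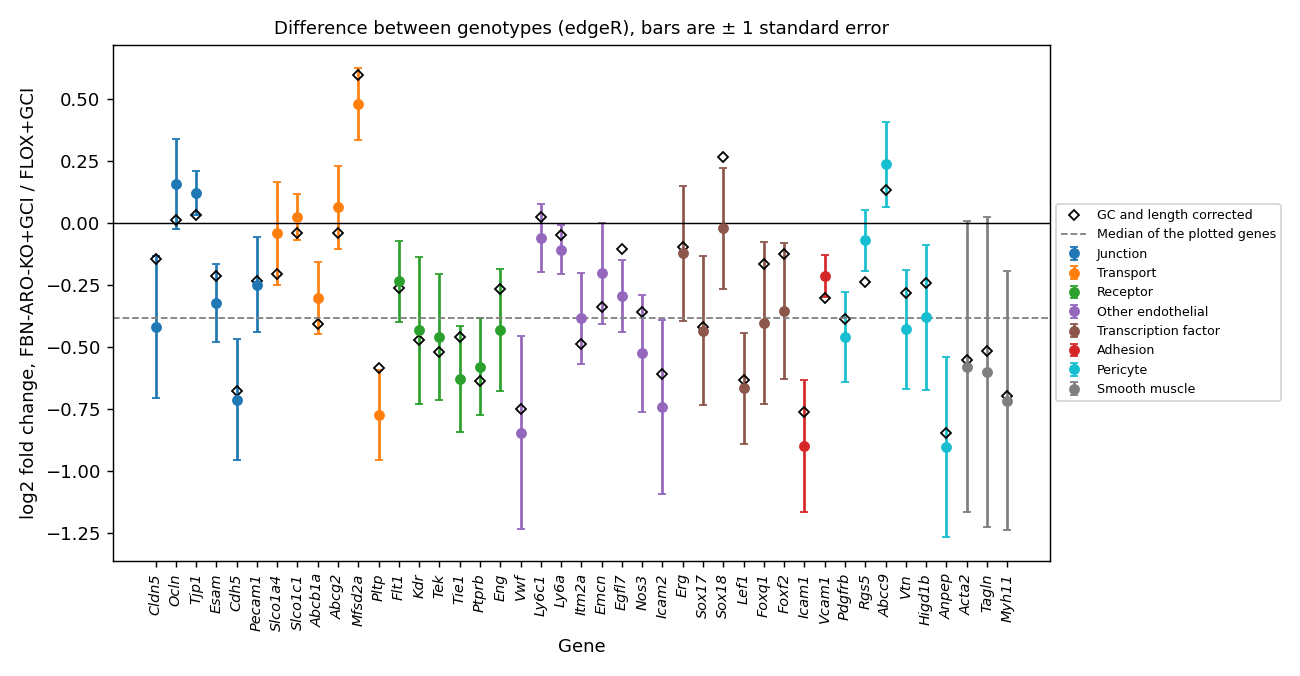
Log2 fold change of FBN-ARO-KO+GCI over FLOX+GCI for each tested vascular gene, with bars of 1 standard error from edgeR and colors by role. Of the 43 genes, 37 lie below 0, and Mfsd2a is the highest at 0.48.

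The promoters of 4 of these genes are shown because they stand at the ends of the range within their roles, Mfsd2a as the gene with the highest log2 fold change, Pltp as the gene with the smallest p, Tie1 as an endothelial receptor on the lower side and Icam1 as the endothelial gene with the lowest log2 fold change. Each is the RefSeq window of 300 bases in GRCm38.p6, from 250 bases before the transcription start to 50 after it, written 5′ to 3′ on the strand of the gene. The windows are chr4:122961139-122961438 on the minus strand for Mfsd2a, chr2:164857659-164857958 on the minus strand for Pltp, chr4:118489800-118490099 on the minus strand for Tie1 and chr9:21015690-21015989 on the plus strand for Icam1. Capitals mark AGGAAG and GGAAATTCC on either strand. AGGAAG is a form of the sites that ETS factors such as Erg are known to bind, which share the shorter core GGAA. GGAA with other neighbouring letters, which these windows also hold, was not marked as an ETS-type site. GGAAATTCC is a form of the NF-kB element whose letters were taken from the Icam1 window.
Mfsd2a: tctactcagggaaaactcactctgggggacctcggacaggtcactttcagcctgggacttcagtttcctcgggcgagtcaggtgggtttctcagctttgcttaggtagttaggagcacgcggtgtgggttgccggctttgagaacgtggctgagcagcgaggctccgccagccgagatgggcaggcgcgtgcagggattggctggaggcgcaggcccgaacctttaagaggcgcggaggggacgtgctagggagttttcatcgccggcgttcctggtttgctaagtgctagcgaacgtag
Pltp: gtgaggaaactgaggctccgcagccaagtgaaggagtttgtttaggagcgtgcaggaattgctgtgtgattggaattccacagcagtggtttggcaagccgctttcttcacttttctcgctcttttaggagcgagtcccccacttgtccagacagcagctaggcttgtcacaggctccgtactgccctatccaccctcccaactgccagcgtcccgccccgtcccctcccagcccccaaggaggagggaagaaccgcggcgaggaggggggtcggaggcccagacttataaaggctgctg
Tie1: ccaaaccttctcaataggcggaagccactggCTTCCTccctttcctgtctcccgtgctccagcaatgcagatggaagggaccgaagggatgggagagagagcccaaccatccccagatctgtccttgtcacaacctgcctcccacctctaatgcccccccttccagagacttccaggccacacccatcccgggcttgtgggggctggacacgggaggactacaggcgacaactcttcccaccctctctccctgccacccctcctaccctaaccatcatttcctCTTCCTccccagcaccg
Icam1: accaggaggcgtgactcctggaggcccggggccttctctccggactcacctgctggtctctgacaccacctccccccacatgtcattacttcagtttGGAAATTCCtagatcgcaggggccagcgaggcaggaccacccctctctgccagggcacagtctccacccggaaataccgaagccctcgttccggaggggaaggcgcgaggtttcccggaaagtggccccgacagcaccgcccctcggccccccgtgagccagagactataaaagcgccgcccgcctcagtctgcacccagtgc
RefSeq windows were at hand for 29 of the 45 genes, 40 windows in all. AGGAAG was in 19 of the 40 windows (47.5%), beside 35.4% of the 32851 promoter windows of all genes. It stood at 2 places in Tie1 and was not in the windows of Mfsd2a, Pltp and Icam1, where other forms of ETS site were not searched for. GGAAATTCC was in the Icam1 window alone among the 40 (2.5%), a match fixed by taking the letters from that window. It was in 0.317% of all windows, a share that therefore cannot be compared with it. No base belonged to both motifs. A match describes the letters only, and no binding was measured.

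Among the junction genes, the gene for VE-cadherin stood lowest, while the tight junction genes Ocln and Tjp1 lay above 0. Cdh5, which encodes VE-cadherin, the adhesion protein of endothelial adherens junctions (mm9, chromosome 8 from 106625525 to 106668402), had a CPM of 24.4 and 16.8 in replicates 1 and 2 of FLOX+GCI and of 15.3 and 9.76 in those of FBN-ARO-KO+GCI. The groups did not overlap. Its log2 fold change was -0.71 (standard error, SE, 0.25, edgeR adjusted p = 0.250), and -0.68 with the GC and length correction. Cldn5 encodes claudin-5, the main tight junction strand protein of brain endothelium (chromosome 16 from 18776940 to 18778353). Its CPM was 42.3 and 24.7 in the FLOX+GCI libraries and 31.0 and 19.0 in those of FBN-ARO-KO+GCI. Both groups spread by more than they differed, and the log2 fold change was -0.42 (SE 0.29, edgeR adjusted p = 0.468) and -0.15 with the GC and length correction. Without FLOX+GCI replicate 1 it was 0.02 and without FBN-ARO-KO+GCI replicate 1 it was -0.82.

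Pecam1, the gene for the platelet endothelial adhesion molecule at cell borders, had a CPM of 35.0 and 25.8 in the FLOX+GCI libraries and 29.7 and 21.4 in those of FBN-ARO-KO+GCI, groups that overlap. Ocln encodes occludin, a second tight junction strand protein, and had a CPM of 16.1 and 11.1 in the FLOX+GCI libraries and 15.6 and 14.7 in those of FBN-ARO-KO+GCI. Tjp1 encodes the scaffold ZO-1, which other cell types use too, and had a CPM of 113 and 98.1 against 113 and 117. Their log2 fold changes were 0.16 for Ocln and 0.12 for Tjp1, but only 0.0096 and 0.031 with the GC and length correction. Without FLOX+GCI replicate 2 that of Ocln was -0.09. Esam, an immunoglobulin-type junction protein, had a log2 fold change of -0.32 with groups that did not overlap. Cdh5, 1 of the 6 junction genes (16.7%), was lower at an unadjusted p under 0.05, beside 7.82% of all genes. As a group, 4 of the 6 junction genes were below 0, with a median log2 fold change of -0.29. Without FLOX+GCI replicate 1 that median was 0.01.

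The transport genes held both the highest fold change and one of the lowest. Pltp encodes phospholipid transfer protein (chromosome 2 from 164665018 to 164683211). Its CPM was 81.9 and 53.1 in the FLOX+GCI libraries and 40.1 and 38.7 in those of FBN-ARO-KO+GCI, or 67.5 ± 20.4 and 39.4 ± 0.976 (SD, n = 2 each). Both FBN-ARO-KO+GCI libraries lay below both FLOX+GCI libraries, and nearly all of the spread was within FLOX+GCI. The log2 fold change was -0.78 (SE 0.18, edgeR adjusted p = 0.238), with an adjusted p of 0.00163 in DESeq2, and it was -0.59 with the GC and length correction and between -1.06 and -0.43 with each library left out in turn. Exons of Pltp overlap 495 bases of Ctsa on the other strand, and the sources used here do not say whether counting used strand, so reads of the 2 genes can be mixed there.

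Mfsd2a encodes the carrier of lysophosphatidylcholine-bound docosahexaenoic acid, which also holds down vesicle traffic across brain endothelium (chromosome 4 from 122624093 to 122638431). Its CPM was 25.3 and 33.3 in the FLOX+GCI libraries and 43.8 and 37.8 in those of FBN-ARO-KO+GCI, the only one of the 43 genes with both FBN-ARO-KO+GCI libraries above both FLOX+GCI libraries. The log2 fold change was 0.48 (SE 0.15, edgeR adjusted p = 0.245), 0.59 with the GC and length correction, and between 0.30 and 0.69 with each library left out in turn. Against the summed CPM of 5 endothelial genes, Cldn5, Pecam1, Cdh5, Flt1 and Kdr, the level of Mfsd2a came to 13.8% and 27.1% in the FLOX+GCI libraries and to 31.5% and 37.8% in those of FBN-ARO-KO+GCI. A higher share was not particular to Mfsd2a. Slco1a4 came to 28.7% and 29.4% against 36.3% and 35.5%. Ocln, Tjp1, Abcg2, Pecam1, Erg and Sox18 were among the other genes with a higher share without overlap. Pltp, Cdh5, Tie1, Ptprb, Vwf and Lef1 were among those with a lower share without overlap. The sum itself was 183 and 123 CPM in the FLOX+GCI libraries and 139 and 99.9 CPM in those of FBN-ARO-KO+GCI.

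The other 4 transport genes had smaller fold changes. Slco1a4, an organic anion carrier of the barrier, had a CPM of 52.6 and 36.2 in the FLOX+GCI libraries and 50.5 and 35.5 in those of FBN-ARO-KO+GCI, with replicate 1 above replicate 2 by a ratio of 1.45 and 1.42. Abcb1a, which encodes the efflux pump P-glycoprotein, had a CPM of 37.2 and 27.8 against 27.1 and 25.5, with a log2 fold change of -0.30 (SE 0.14, edgeR adjusted p = 0.335). Both have close relatives in the genome, and reads that map to more than 1 place were not counted, so their levels are uncertain. Slco1c1, a thyroxine carrier, had a log2 fold change of 0.02, and Abcg2, a second efflux pump, of 0.06. Both turned to -0.04 with the GC and length correction, and Slco1c1 was at -0.01 with library totals as the only scaling. Slco1a4, at -0.04 with all libraries, was at 0.25 without FLOX+GCI replicate 1 and at 0.19 without FBN-ARO-KO+GCI replicate 2. Without FLOX+GCI replicate 2, Slco1c1 was at -0.03 and Abcg2 at -0.17, and without FBN-ARO-KO+GCI replicate 1 Slco1c1 was at -0.08. The median of the 6 transport genes was -0.01, against 0.16 without FLOX+GCI replicate 1, 0.10 without FBN-ARO-KO+GCI replicate 2, -0.23 without FLOX+GCI replicate 2 and -0.20 without FBN-ARO-KO+GCI replicate 1.

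All 6 receptor genes had a log2 fold change below 0, with a median of -0.45. Tie1 and Ptprb, 2 of the 6 (33.3%), were lower at an unadjusted p under 0.05, beside 7.82% of all genes. Tie1 encodes a receptor that modulates angiopoietin signaling (chromosome 4 from 118143796 to 118162666). Its CPM was 15.7 and 11.4 in the FLOX+GCI libraries and 10.1 and 7.34 in those of FBN-ARO-KO+GCI, groups that did not overlap. The log2 fold change was -0.63 (SE 0.21, edgeR adjusted p = 0.248), and -0.46 with the GC and length correction. Ptprb encodes VE-PTP, the endothelial phosphatase that acts on Tie2 and VE-cadherin (chromosome 10 from 115712579 to 115826594). It had a CPM of 58.9 and 39.1 in the FLOX+GCI libraries and 36.4 and 29.1 in those of FBN-ARO-KO+GCI, again without overlap. Its log2 fold change was -0.58 (SE 0.20, edgeR adjusted p = 0.248, DESeq2 adjusted p = 0.0402), with -0.25 when FLOX+GCI replicate 1 was left out and -0.85 when FLOX+GCI replicate 2 was.

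Tek encodes Tie2, the angiopoietin receptor, and had a CPM of 23.3 and 15.8 in the FLOX+GCI libraries and 17.5 and 10.9 in those of FBN-ARO-KO+GCI. The VEGF receptor genes Flt1 and Kdr differed less between genotypes than between the FLOX+GCI libraries. Flt1 had a CPM of 61.9 and 45.5 in the FLOX+GCI libraries and 50.6 and 40.5 in those of FBN-ARO-KO+GCI. Kdr had a CPM of 19.4 and 10.1 in the FLOX+GCI libraries and 12.6 and 9.22 in those of FBN-ARO-KO+GCI. Replicate 1 was thus above replicate 2 in both genotypes for each of these receptors. The log2 fold changes were -0.24 for Flt1, -0.43 for Kdr and -0.46 for Tek, and without FLOX+GCI replicate 1 they were 0.01, 0.11 and -0.15. Eng, the gene for the TGF-β coreceptor endoglin, had a log2 fold change of -0.43, with overlapping groups. The median of the 6 receptor genes was -0.11, with 4 below 0, without FLOX+GCI replicate 1, -0.20 without FBN-ARO-KO+GCI replicate 2, -0.78 without FLOX+GCI replicate 2 and -0.75 without FBN-ARO-KO+GCI replicate 1.

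The 8 other endothelial genes were all below 0, with a median log2 fold change of -0.34, and none had an unadjusted p under 0.05. Vwf, which encodes the clotting protein von Willebrand factor, had a CPM of 79.5 and 41.7 in the FLOX+GCI libraries and 46.2 and 21.0 in those of FBN-ARO-KO+GCI. Replicate 1 was about as far above replicate 2 as FLOX+GCI was above FBN-ARO-KO+GCI, with ratios of 1.91 in FLOX+GCI and 2.20 in FBN-ARO-KO+GCI. For Vwf a log2 fold change of -0.85 (SE 0.39, edgeR adjusted p = 0.324) was found, which ranged from -1.54 to -0.31 with each library left out in turn. Nos3, the gene for endothelial nitric oxide synthase, was at -0.53, and Icam2, a constitutive endothelial adhesion molecule, at -0.74, each with groups that did not overlap. Exons of Nos3 overlap 1334 bases of Atg9b and Gm15587 on the other strand. Itm2a, a membrane protein gene on chromosome X, was at -0.39 and the secreted vessel factor Egfl7 at -0.30, both also without overlap.

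The sialomucin gene Emcn was at -0.20 with overlapping groups, and at 0.05 without FLOX+GCI replicate 1. Ly6c1 and Ly6a, which belong to a family of close copies whose shared reads were not counted, were at -0.06 and -0.11. Ly6c1 overlapped between groups. Ly6a did not, with a CPM of 29.0 and 28.5 in the FLOX+GCI libraries and 27.8 and 25.5 in those of FBN-ARO-KO+GCI. In all, 5 of the 8 genes lay below FLOX+GCI without overlap, beside 25.8% of all genes. The value of Ly6c1 was 0.02 with the GC and length correction, 0.06 without FLOX+GCI replicate 2 and 0.08 without FBN-ARO-KO+GCI replicate 2. Per length, in RPKM (CPM over exon length in kilobases), Ly6c1 and Ly6a were the most abundant of the 36 endothelial genes, with means of 36.8 and 35.1 RPKM in FLOX+GCI, and were followed by Itm2a at 31.4 RPKM and Slco1c1 at 28.4 RPKM. Within FLOX+GCI, Ly6c1, at 33.8 and 39.8 RPKM, and Ly6a, at 35.4 and 34.8 RPKM, did not differ from each other beyond their spread. In FBN-ARO-KO+GCI the means of these 4 genes were 35.2, 32.5, 24.0 and 28.8 RPKM.

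The transcription factors were sparse. All 6 had a log2 fold change below 0, with a median of -0.38. With the GC and length correction the median was -0.15, with 5 of the 6 below 0. Lef1, 1 of the 6 (16.7%), was lower at an unadjusted p under 0.05, beside 7.82% of all genes. Lef1, a DNA-binding partner of β-catenin in Wnt signaling (chromosome 3 from 130813389 to 130927274), had 138 and 100 counts in the FLOX+GCI libraries and 102 and 86 in those of FBN-ARO-KO+GCI, the latter from larger libraries. In CPM this was 5.51 and 4.06 against 3.08 and 2.94, without overlap, and a log2 fold change of -0.67 (SE 0.23, edgeR adjusted p = 0.248). The forkhead factors Foxq1 and Foxf2, both tied to brain vessel identity, were at -0.40 and -0.36, and Sox17, a factor of arterial endothelium, at -0.44, each with overlapping groups. Erg, the ETS factor that maintains endothelial identity, was at -0.12, and Sox18, a relative of Sox17, at -0.02. Without FLOX+GCI replicate 1, Erg was at 0.19, Sox18 at 0.36 and Foxq1 at 0.16, and without FBN-ARO-KO+GCI replicate 2 Erg was at 0.09 and Sox18 at 0.04. With the GC and length correction Sox18 was at 0.27, Foxq1 at -0.17 and Foxf2 at -0.13. Exons of Foxq1 overlap 1164 bases of A530084C06Rik on the other strand. The median of the 6 was 0.08 without FLOX+GCI replicate 1.

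The adhesion molecules split by level. Icam1 encodes a ligand for leukocyte integrins (chromosome 9 from 20820404 to 20833241). It had 114 and 145 counts in the FLOX+GCI libraries and 112 and 64 in those of FBN-ARO-KO+GCI, or a CPM of 4.55 and 5.88 against 3.38 and 2.18. The groups did not overlap, and the log2 fold change was -0.90 (SE 0.27, edgeR adjusted p = 0.245), -0.76 with the GC and length correction, and between -1.26 and -0.62 with each library left out in turn. Exons of Icam1 overlap 491 bases of Mir1900 on the other strand. Vcam1 encodes the ligand for a further leukocyte integrin (chromosome 3 from 115812938 to 115832606) and had a CPM of 39.9 and 40.0 in the FLOX+GCI libraries and 34.5 and 34.4 in those of FBN-ARO-KO+GCI. The ratio of replicate 1 to replicate 2 was 0.998 in FLOX+GCI and 1.00 in FBN-ARO-KO+GCI, and the log2 fold change was -0.21 (SE 0.09, edgeR adjusted p = 0.281). Neither gene had replicate 1 above replicate 2 in both genotypes.

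The selectins were barely detected. Sele, the gene for E-selectin, had 6 and 5 counts in the FLOX+GCI libraries and 4 and 11 in those of FBN-ARO-KO+GCI. Selp, the gene for P-selectin, had 2 and 8 counts in the FLOX+GCI libraries and 11 and 7 in those of FBN-ARO-KO+GCI. These counts are near the floor of 3, they failed the filter, and no difference was detectable at this depth.

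Among the pericyte genes, 5 of 6 were below 0, with a median log2 fold change of -0.41. Pdgfrb and Anpep, 2 of the 6 (33.3%), were lower at an unadjusted p under 0.05, beside 7.82% of all genes. Pdgfrb encodes the receptor for PDGF-B that recruits pericytes to vessels. It had a CPM of 37.7 and 28.7 in the FLOX+GCI libraries and 27.9 and 20.3 in those of FBN-ARO-KO+GCI, with no overlap but with FLOX+GCI replicate 2 only just above FBN-ARO-KO+GCI replicate 1. Its log2 fold change was -0.46 (SE 0.18, edgeR adjusted p = 0.280). Anpep, the gene for aminopeptidase N, had a CPM of 6.58 and 3.89 in the FLOX+GCI libraries and 3.65 and 1.91 in those of FBN-ARO-KO+GCI. The log2 fold change of -0.91 (SE 0.36, edgeR adjusted p = 0.283) was the lowest of all 43 genes.

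Vtn, which encodes the secreted protein vitronectin, had the highest level per length of all 45 genes, at a mean of 51.3 RPKM in FLOX+GCI and 38.1 RPKM in FBN-ARO-KO+GCI. The CPM was 121 and 87.2 in the FLOX+GCI libraries and 96.8 and 57.7 in those of FBN-ARO-KO+GCI, groups that overlap. Rgs5, a regulator of G protein signaling, had a CPM of 29.3 and 23.8 in the FLOX+GCI libraries and 25.6 and 24.9 in those of FBN-ARO-KO+GCI. The FBN-ARO-KO+GCI values of Rgs5 fell inside the range of FLOX+GCI, and its log2 fold change was -0.07, or 0.09 without FLOX+GCI replicate 1. Abcc9, a subunit of the potassium channels of pericytes, was at 0.24, the second highest of the 43, and Higd1b, a further pericyte gene, was at -0.38 on 42 to 59 counts. The pericyte genes Pdgfrb, Rgs5 and Abcc9 thus lay on different sides, with Pdgfrb lower in both FBN-ARO-KO+GCI libraries and the other two overlapping between groups. Under leave-one-out the median of the 6 lay between -0.62, without FLOX+GCI replicate 2, and -0.15, without FLOX+GCI replicate 1.

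The smooth muscle genes varied most between libraries of 1 genotype. Acta2 encodes smooth muscle actin (chromosome 19 from 34315580 to 34329826) and had 1488 and 618 counts in the FLOX+GCI libraries and 1481 and 337 in those of FBN-ARO-KO+GCI, or a CPM of 59.4 and 25.1 against 44.7 and 11.5. Tagln, the gene for the actin-binding protein transgelin, had a CPM of 24.7 and 11.5 against 19.5 and 4.10. Myh11, the gene for smooth muscle myosin heavy chain, had a CPM of 32.4 and 15.6 against 22.3 and 6.66. For all 3 genes the order of the libraries was the same, FLOX+GCI replicate 1 first, FBN-ARO-KO+GCI replicate 1 next, then FLOX+GCI replicate 2 and FBN-ARO-KO+GCI replicate 2. Replicate 1 exceeded replicate 2 by a median of 2.15 times in FLOX+GCI and 3.88 times in FBN-ARO-KO+GCI. The log2 fold changes, -0.58 for Acta2, -0.60 for Tagln and -0.72 for Myh11, had standard errors of 0.59, 0.62 and 0.52, with adjusted p between 0.494 and 0.636 from edgeR. Their median was 0.05 without FLOX+GCI replicate 1, 0.08 without FBN-ARO-KO+GCI replicate 2, -1.07 without FLOX+GCI replicate 2 and -1.88 without FBN-ARO-KO+GCI replicate 1.

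The same order of replicates ran through most of the vascular genes. Replicate 1 was above replicate 2 in both genotypes for 34 of the 43 genes, beside 21.7% of all genes tested. The median ratio of replicate 1 to replicate 2 was 1.39 in FLOX+GCI and 1.31 in FBN-ARO-KO+GCI, beside 0.999 and 0.992 for all genes. For 6 genes, namely Cldn5, Vwf, Anpep, Acta2, Tagln and Myh11, replicate 1 was more than 1.5 times replicate 2 in both genotypes, beside 1.58% of all genes. Mfsd2a, Icam1, Ly6c1, Egfl7 and, by a hair, Vcam1 were higher in replicate 2 than in replicate 1 of FLOX+GCI and lower in replicate 2 than in replicate 1 of FBN-ARO-KO+GCI.

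**Figure D3:**
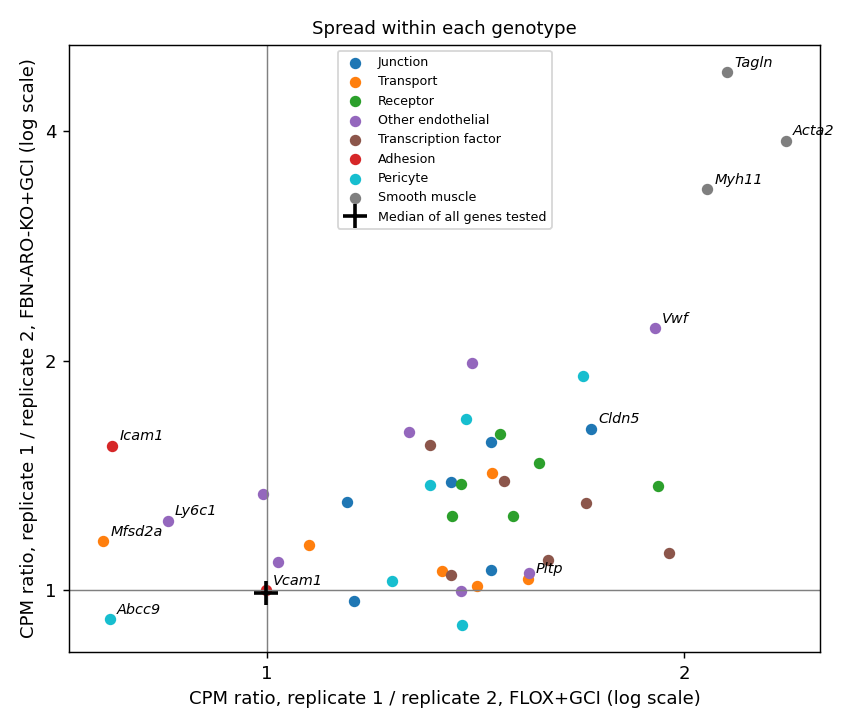
Ratio of replicate 1 to replicate 2 (CPM, log axes) in FLOX+GCI (x axis) against the same ratio in FBN-ARO-KO+GCI (y axis) for each tested vascular gene, colored by role. Most genes lie in the upper right part, and the 3 smooth muscle genes lie farthest out.

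Genes of other cell types were read beside this, since a dissected hippocampus can carry meninges and blood. All 7 fibroblast genes, which mark cells of the meninges and of vessel sheaths, were below 0, with a median log2 fold change of -1.04, and 0 had an unadjusted p under 0.05 with edgeR. Their summed CPM was 362 and 186 in the FLOX+GCI libraries and 219 and 119 in those of FBN-ARO-KO+GCI, in the same order as the summed CPM of the 45 vascular genes, at 1417 and 1047 against 1147 and 880. Both sums overlapped between groups. The hemoglobin genes Hba-a1, Hba-a2, Hbb-b1 and Hbb-b2 were listed at 0 in every library. They are close copies whose shared reads were not counted, so these values cannot show an absence of blood. Alas2, the erythroid gene of heme synthesis, was at -0.81 with groups that did not overlap. Medians were 0.01 for microglia, 0.13 for astrocyte, 0.01 for neuron and 0.15 for oligodendrocyte genes. The summed CPM of the astrocyte genes was higher in FBN-ARO-KO+GCI without overlap, at 4337 and 4085 in FLOX+GCI against 4432 and 5098. So was that of the oligodendrocyte genes, at 3463 and 3967 against 4017 and 4123. The sums of the microglia and neuron genes overlapped between groups. Of 7 choroid plexus genes tested, 3 were below 0 and 4 above, with a median of 0.01. At an unadjusted p under 0.05, 2 were lower (28.6%), beside 7.82% of all genes. They were the transthyretin gene Ttr at -0.98 and the prolactin receptor gene Prlr at -0.53. The summed CPM of the 8 choroid plexus genes listed was 72.4 and 59.3 in the FLOX+GCI libraries and 50.1 and 56.7 in those of FBN-ARO-KO+GCI, without overlap. The share of meningeal, choroid plexus or vessel tissue in each library was not measured, and its part in the fold changes was not tested.

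**Figure D4:**
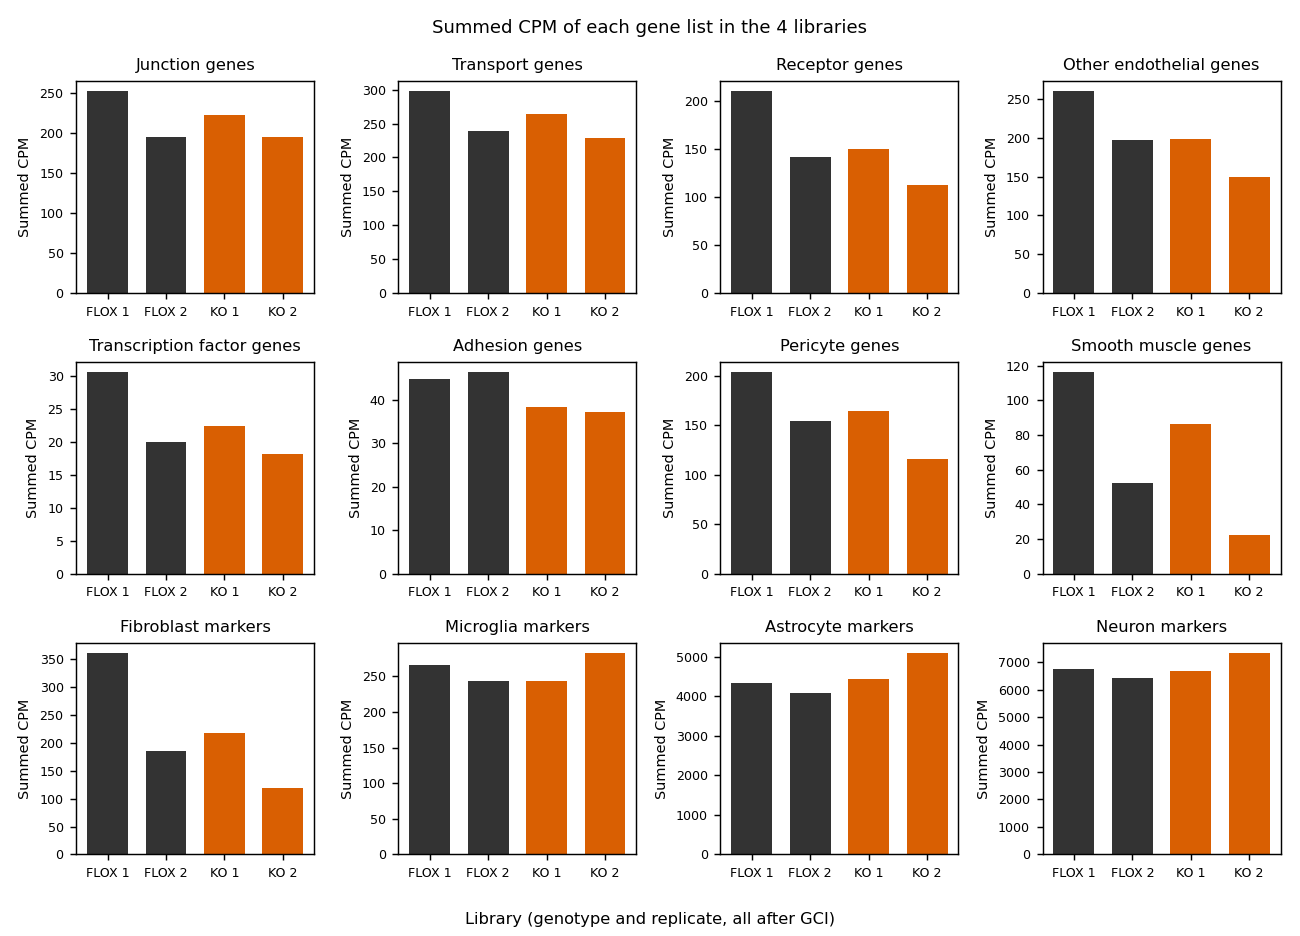
Summed CPM of each role group of vascular genes and of the fibroblast, microglia, astrocyte and neuron genes in the 4 libraries (bars start at 0). In smooth muscle and fibroblast genes, replicate 1 stands above replicate 2 within each genotype, while the adhesion genes sit at 44.8 and 46.5 in FLOX+GCI and at 38.3 and 37.2 in FBN-ARO-KO+GCI.

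**Figure D5:**
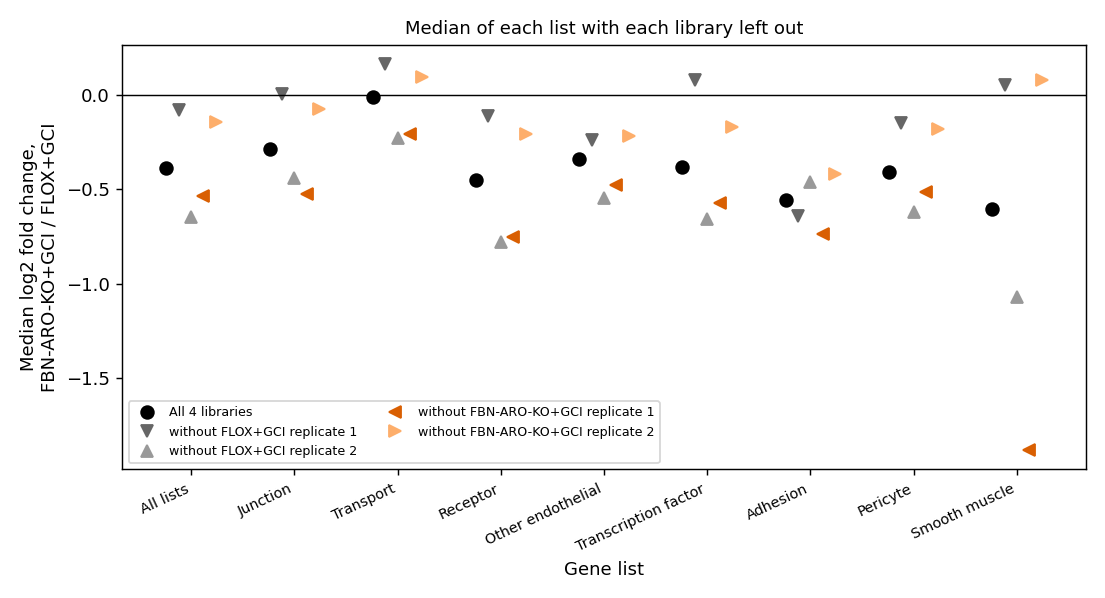
Median log2 fold change of each role group with all 4 libraries and with each library left out in turn. The smooth muscle median runs from -1.88 to 0.08, and the adhesion median, over Icam1 and Vcam1, from -0.74 to -0.42.

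Further genes of the same pathways, outside the 45, were read from 5 lists. Of 20 other barrier genes tested, 5 had an unadjusted p under 0.05, all lower in FBN-ARO-KO+GCI, beside 7.82% of all genes lower at that threshold, with a median log2 fold change of -0.05 over the 20. Cav1, the gene for caveolin-1 of endothelial caveolae, had a CPM of 22.3 and 21.0 in the FLOX+GCI libraries and 14.8 and 15.9 in those of FBN-ARO-KO+GCI, groups far apart for their spread. Its log2 fold change was -0.49 (SE 0.11, edgeR adjusted p = 0.238). Slc22a8, an organic anion carrier, was at -0.93 and Slc7a5, a carrier of large neutral amino acids, at -0.31. Caveolae carry the vesicle traffic that Mfsd2a is known to hold down. In these libraries Cav1 was on the lower side, as were 37 of the 43 vascular genes, and Mfsd2a was on the higher side. Neither Cav1 nor Mfsd2a had an adjusted p under 0.05 with edgeR, and a link between them was not tested.

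Of 15 angiogenic ligands and receptors tested, 4 were lower and 2 higher at an unadjusted p under 0.05, beside 7.82% and 8.72% of all genes, with a median of -0.11. Angpt2, the gene for the Tie2 ligand angiopoietin-2, had 97 and 52 counts in the FLOX+GCI libraries and 53 and 20 in those of FBN-ARO-KO+GCI, for a log2 fold change of -1.37 (SE 0.46, edgeR adjusted p = 0.248). Tgfb1, the gene for the cytokine TGF-β1, was at -0.68, and Nrp1, the gene for a VEGF coreceptor that neurons also express, at 0.30. Of 16 genes of endothelial Wnt signaling tested, 12 were below 0, with a median of -0.20. At an unadjusted p under 0.05, 2 were lower (12.5%), beside 7.82% of all genes. They were the feedback inhibitor Nkd1 at -0.57 and the ligand gene Ndp at -0.35. Of 15 other mural genes tested, 14 were below 0, with a median of -0.45. Only 1 was lower at an unadjusted p under 0.05, the receptor gene Notch3 at -0.67. That share, 6.67%, was near the 7.82% of all genes.

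Of 12 genes of endothelial activation tested, 4 (33.3%) were lower at an unadjusted p under 0.05, beside 7.82% of all genes, and the median was -0.41. Il1r1, the interleukin-1 receptor gene, had a CPM of 14.5 and 14.0 in the FLOX+GCI libraries and 10.4 and 8.77 in those of FBN-ARO-KO+GCI, for a log2 fold change of -0.57 (SE 0.14, edgeR adjusted p = 0.238). Socs3, a feedback inhibitor of cytokine signaling, had a CPM of 2.27 and 13.4 against 1.48 and 1.54. It was high in FLOX+GCI replicate 2 alone, where Icam1 was also at its highest, whereas the smooth muscle genes were higher in FLOX+GCI replicate 1. The log2 fold change of Socs3 was -2.37 with all libraries and -0.60 without FLOX+GCI replicate 2.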

How the data were processed

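Total RNA of the hippocampus was sequenced in 4 libraries, 2 per genotype, as 50 nt single-end reads. The authors aligned the reads to mm9 and deposited raw counts per gene symbol, without normalization. The submitters' processing notes name bcl2fastq, TopHat2 2.0.8b and HTSeq, whose strand setting is not given in the sources used here. The 5 HTSeq counters were left out of library sizes. As shares of gene counts and counters together, no feature was 7.96 to 8.70%, ambiguous 0.265 to 0.283% and not unique 35.1 to 36.5%. Groups and replicate numbers came from the labels.

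Genotypes were compared by quasi-likelihood in edgeR (version 4.0.16, under R 4.3.3), on the counts as deposited (TMM, filterByExpr with a minimum count of 10, Benjamini-Hochberg over all genes tested at 0.05). Standard errors were approximated as the log2 fold change over the square root of F. An exact permutation test of 2 against 2 libraries cannot give a two-sided p below 0.333. Alternatives were DESeq2 1.42.0, size factors of the DESeq kind, scaling by library totals alone, no filter beyond 1 count, a filter at a mean of 50 counts, edgeR's likelihood ratio test, a block for the replicate number, an offset from splines (5 degrees of freedom) over GC content and length, both together, and each library left out. Leave-one-out medians cover the genes tested with all libraries. The tests were first checked on simulated counts.

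Gene positions, exon length and GC content came from GENCODE M1 on NCBIM37, the build of mm9 (21430 symbols with a single locus, 20245 with GC content and length). Promoters came from RefSeq on GRCm38.p6. The 45 genes and all lists were chosen with earlier results of these data known. All 45 are accounted for. Values in every library were set for vascular genes at an unadjusted p under 0.05 and for the adhesion molecules. They were also set for 18 junction, transport, receptor, pericyte and smooth muscle genes, with Vwf among them. From each further list, up to 3 genes with the smallest p were named, many with the log2 fold change alone. Some genes of these lists are not reported here.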

Additional observations from a re-analysis of the deposited data

How the results depend on the processing

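The median log2 fold change of the 43 genes stayed below 0 in every alternative, between -0.42 and -0.28 outside the leave-one-out fits and between -0.65 and -0.08 within them. The number of genes called over the whole table (2) was 292 with DESeq2, 5 with every gene of at least 1 count, 294 with the likelihood ratio test, 184 with the replicate block, 1 when the GC and length correction joined the block, and 0 to 193 with 1 library left out. The number of vascular genes called (0) was 2 with DESeq2, 1 with the likelihood ratio test (Pltp), 7 with the replicate block (Cdh5, Pltp, Ptprb, Vwf, Vtn, Acta2 and Myh11), 0 when the correction joined it, and 0 to 6 under leave-one-out. The number at an unadjusted p under 0.05 (10) was 24 with the replicate block, 25 when the correction joined it, and 2 to 27 under leave-one-out. Same-numbered libraries deviated together at a correlation of 0.129 over all 14527 genes and 0.555 over the 43, but with only 2 numbers, and no label that ties them to a shared animal or day, they share only a number. Of 525 single-gene values with an adjusted p, which leaves out 33 of DESeq2 that had none, 477 kept their direction and side of an adjusted p of 0.05, 16 passed it and 32 turned sign, in 15 genes. Slco1c1 turned to -0.010 with library totals, -0.041 with the correction and -0.047 with the correction and block, Abcg2 to -0.043 and -0.031, Ly6c1 to 0.025 and 0.022, and Sox18 to 0.27 and 0.29 in the latter 2 and to 0.0016 with the block. Leave-one-out values ranged from -0.82 to 0.021 for Cldn5, -0.090 to 0.45 for Ocln, -0.33 to 0.25 for Slco1a4, -0.081 to 0.12 for Slco1c1, -0.17 to 0.34 for Abcg2, -0.44 to 0.0051 for Flt1, -0.83 to 0.11 for Kdr, -0.23 to 0.082 for Ly6c1, -0.42 to 0.049 for Emcn, -0.39 to 0.19 for Erg, -0.32 to 0.36 for Sox18, -0.81 to 0.16 for Foxq1, -0.22 to 0.089 for Rgs5, -1.88 to 0.17 for Acta2 and -2.15 to 0.11 for Tagln. The causes were not tested. A library left alone in its group was assumed to vary like the other group. Depth limits Sele and Selp, with at most 11 counts.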
